A study of Drosophila melanogaster with 9 samples.

Results

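Low oxygen reached the flies in 2 patterns, constant hypoxia (CH) and intermittent hypoxia (IH), and the question here was which genes stood on the same side of normoxia (NC) under both. The 6 hypoxia arrays (CH1 to CH3 and IH1 to IH3) were taken as a single group against the 3 NC arrays, out of 9 arrays in all. Each sample held 25 adult males and females of the wild type stock Canton-S, 5 to 6 days old, pooled as whole organisms, and every exposure lasted 2.5 hours. CH was 1% O2 throughout, in IH 4 min of 1% O2 alternated with 4 min of 21% O2, and NC flies stayed in normoxia in the same room. Between the IH phases the gas was ramped, and the ramp down to 1% O2 lasted longer than either phase. IH flies were therefore at 1% O2 for a smaller part of the exposure than the phases alone imply. Expression was read on the Affymetrix Drosophila Genome 2.0 array, on which a probe set is a group of short oligonucleotides against a transcript. Its signal is an intensity, and fold changes are given as differences of log2(signal + 16). Of 18769 probe sets, 10263 had a mean signal of 500 or more over the 9 arrays. Among these, 54 had all 6 hypoxia arrays above all 3 NC arrays (0.526% of them) and 102 had all 6 below (0.994%). With no minimum signal, 146 of the 18769 lay above (0.778%) and 187 below (0.996%). There are 84 ways to choose 3 of 9 arrays. If the treatments made no difference and each choice were equally likely, separation in a given direction would be met by 1 in 84 probe sets, a fraction of 0.0119. Same-numbered arrays deviated together, as given in the last section, so this fraction is only a rough guide. Every percentage above is smaller than this fraction, so nothing is read from the counts. These 156 bright probe sets were picked by their hypoxia and NC signals, so their folds against NC describe them and carry no test.

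Insects take up oxygen through tracheae, and their cells answer a shortage largely through the transcription factor HIF, whose alpha subunit in the fly is Sima and whose partner is Tango. In normoxia the prolyl hydroxylase Hph marks Sima for destruction by way of Vhl. Targets of HIF and of other stress pathways include regulators of insulin signalling, of metabolism and of tracheal growth. Detoxifying enzymes such as glutathione S-transferases and peroxiredoxins deal with reactive molecules that form when oxygen supply changes.

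No probe set passed the pooled test over all features. In limma's 6 against 3 fit with Benjamini-Hochberg adjustment, 0 probe sets were called higher and 0 lower (0% in each direction), and the smallest adjusted p was 0.403. At an unadjusted p under 0.05 there were 313 higher (1.67%) and 359 lower (1.91%), 672 in all, and none of the alternative fits that adjusted p made a call. The 5 smallest p-values belonged to dim probe sets with mean signals of at most 481. Among the 156, the smallest adjusted p in that fit was 0.449, for CG44251. Whether the 3 samples of each treatment were exposed separately is not stated in the sources, so that every p-value reflects the spread among these arrays alone, and that spread may be technical.

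Facts of the arrays that touch the comparison are few. The median signal was 690 to 765 on CH arrays, 578 to 807 on IH arrays and 664 to 758 on NC arrays. IH1 was the array with the lowest median, and 25.8% of its probe sets were under 100. The 3 control probe sets for 18S rRNA averaged 7.07 to 10.5 on the log2 scale over the hypoxia arrays and 6.88 to 7.40 over the NC arrays. Their mean was 2.04 higher in hypoxia (exact two-sided permutation test, p = 0.0476, with 0.0119 the smallest that 84 arrangements allow), and 5 of 6 hypoxia arrays lay above the highest NC array, all but IH1. Leaving out any array except IH1 took that p to between 0.0536 and 0.143. The part of this control signal in the gene results below was not tested.

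The leading genes above NC in both patterns were Drat, CG44251 and GstE1, ordered by the smaller of a gene's log2 fold changes, CH against NC and IH against NC. First came Drat (also CG1600), a protein of the zinc-type alcohol dehydrogenase family. It read 23564, 34723 and 36572 on the CH arrays and 16603, 28092 and 24609 on the IH arrays, against 13948, 12663 and 10273 on the NC arrays. The lowest hypoxia array, IH1, stood 19.0% above the highest NC array, and the pooled log2 fold change was 1.12 ± 0.25 (SE, 6 against 3 arrays), with 1.35 for CH and 0.89 for IH. CG44251, which carries CG3884 among its older names, read 1994, 2422 and 1834 in CH and 2016, 2332 and 2152 in IH, against 1362, 1156 and 976 in NC. Both patterns gave it nearly the same level, 2083 ± 304 in CH and 2167 ± 158 in IH, against 1165 ± 193 in NC (SD, n = 3 each), and its gap of 34.6% to the highest NC array was the widest of the 54. A second, brighter probe set of the same gene had log2 fold changes of 0.28 in CH and 0.39 in IH, and its arrays overlapped.

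**Figure D1:**
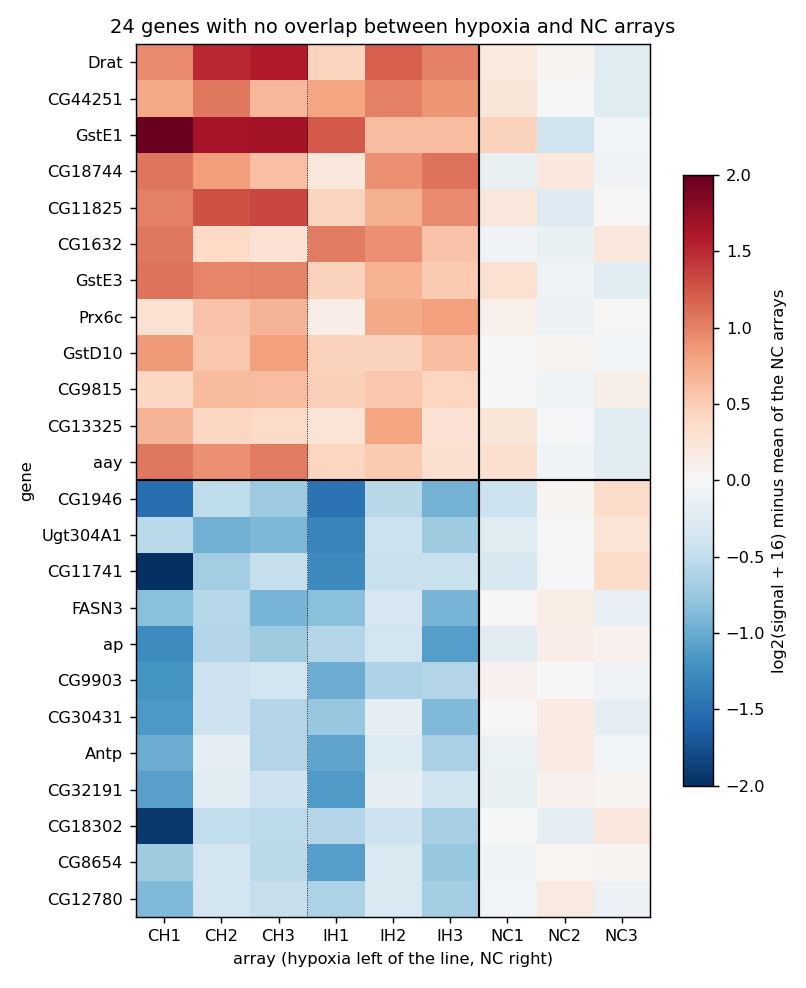
Colour map of log2(signal + 16) minus the mean of the 3 NC arrays, for the 12 genes with the largest smaller change above NC (upper rows) and the 12 below it (lower rows), with the 9 arrays as columns and colours ending at −2 and 2. GstE1 is darkest on the CH arrays and Drat on CH2 and CH3, while CG1946 and CG11741 are lowest on CH1 and IH1.

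Glutathione S-transferases, which conjugate glutathione to reactive compounds, gave 3 of the 54, all of the delta and epsilon classes. GstE1 read 5114, 4059 and 4138 in CH and 3039, 1992 and 1990 in IH, against 1773, 970 and 1241 in NC. Every CH array was above every IH array, and IH2 and IH3 lay only a little above NC1. GstE3 read 12651, 11768 and 11918 in CH and 8202, 9664 and 8613 in IH, against 7387, 5576 and 5141 in NC, with the same order of CH over IH over NC. GstD10 stood 32.8% clear of NC, with 1160 to 1526 in hypoxia against 806 to 874 in NC, and its log2 fold changes were 0.74 in CH and 0.51 in IH. Over the 34 measured glutathione S-transferases 16 were above 0 and 18 below, with a median pooled log2 fold change of −0.02, against −0.01 over all 11982 genes. Within the delta and epsilon classes, a grouping chosen after their values were seen, 13 of 18 bright probe sets were above 0. Of these 18, 3 were without overlap above NC, against 0.526% of all bright probe sets.

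Peroxiredoxins, which reduce peroxides, and a mitochondrial gene lay near each other in the RefSeq gene order and on the same side. Prx6c read 25897 to 41644 in hypoxia against 21805 to 25409 in NC, log2 fold changes of 0.52 in CH and 0.57 in IH, with a gap of only 1.92%. A further probe set that matches Prx6b, CG12896 and Prx6c together read 38752 to 67159 in hypoxia against 29703 to 34355 in NC. Since these copies share probes, their separate levels are uncertain. CG11825, a member of the hypoxia-induced HIG1 domain family, is their neighbour with at most 1 gene between, and it read 5388, 6484 and 6787 in CH and 3679, 4411 and 5166 in IH, against 3155, 2248 and 2725 in NC. Its pooled log2 fold change was 0.95 ± 0.22. Over 14 antioxidant enzymes, 8 were above 0 and 6 below, the median was 0.01, and Prx6c was the member without overlap. By comparison, 0.526% of all bright probe sets were above NC without overlap, and 5609 of all 11982 genes were above 0. GstE1 and GstE3 are also near neighbours, and Idgf5, an imaginal disc growth factor gene beside them, was among the 102 below NC (−0.31 in CH, −0.14 in IH).

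**Figure D2:**
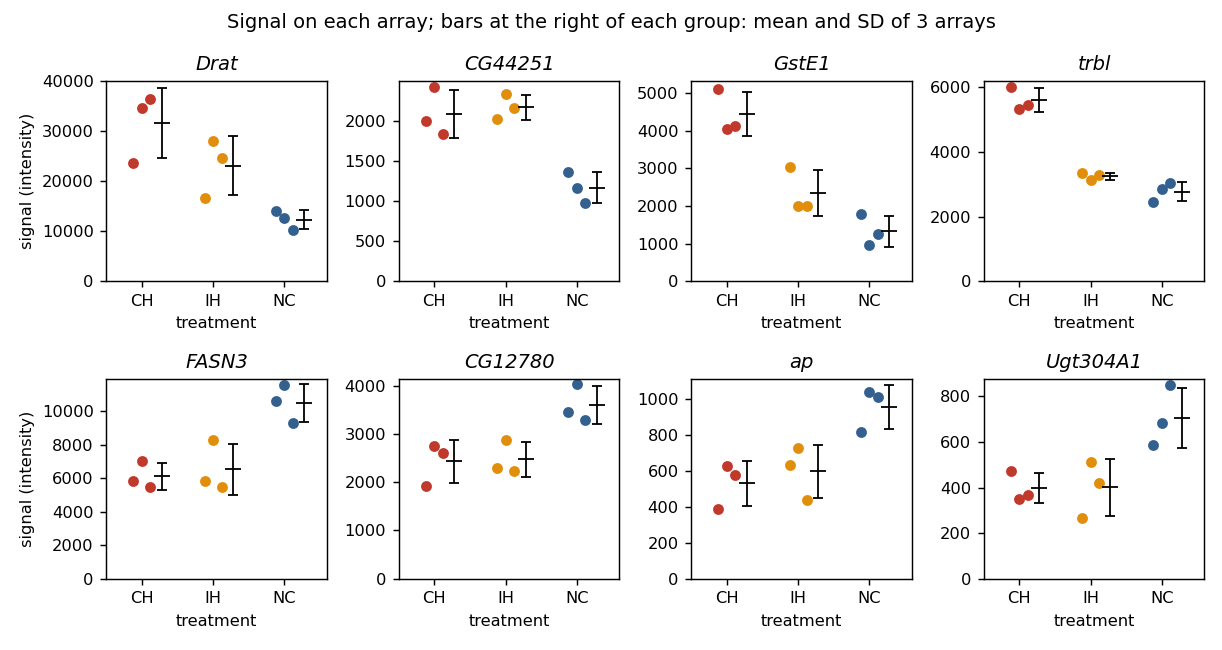
Signal (intensity, linear axis from 0) of 8 genes on each array, grouped as CH, IH and NC, with the mean and SD of the 3 arrays drawn at the right of each group. In the upper row every hypoxia point is above every NC point, and for GstE1 and trbl the CH points also stand above the IH points. In the lower row the order is turned, with FASN3 at 5456 to 8266 in hypoxia and 9267 to 11533 in NC.

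Genes of signalling and transcription were also above NC. The product of ImpL2 is secreted, binds insulin-like peptides and restrains growth signalling. It read 18758, 27628 and 25257 in CH and 11746, 14132 and 12643 in IH, against 9572, 11488 and 9645 in NC, so that IH1 was 2.24% above NC2. The pseudokinase gene trbl, which restrains Akt and the cell cycle, read 6018, 5326 and 5461 in CH and 3341, 3134 and 3288 in IH, against 2436, 2846 and 3027 in NC. Its IH arrays were close together (3254 ± 108, SD, n = 3) and just above NC (2770 ± 303), while CH was at 5601 ± 367. These are the members without overlap among 19 genes of insulin, FOXO and TOR restraint, where 10 were above 0 and 9 below and the median was 0.03. The share of all bright probe sets above NC without overlap was 0.526%, and 5609 of all 11982 genes were above 0. The zinc finger transcription factor gene cbt, induced early after many stimuli, had log2 fold changes of 0.70 in CH and 0.39 in IH. Among the members outside the naming rule, chosen after their values were seen, were Sox14, a transcription factor (0.59 in CH, 0.20 in IH), Krn, a ligand of the EGF receptor (0.35 and 0.31), and imd, the adaptor of an immune pathway (0.31 and 0.47).

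Enzymes of serine and purine synthesis were also among the genes above NC. The phosphoserine phosphatase gene aay read 24734, 22381 and 24531 in CH and 15930, 17079 and 14825 in IH, against 14751, 11162 and 10148 in NC. IH3 was only 0.50% above NC1, while the lowest CH array read 22381. Prat2, the enzyme that opens purine synthesis, read 7872 to 18071 in hypoxia against 6007 to 7853 in NC, with a gap of 0.25% and its highest value on CH1. Pfas, a later enzyme of the pathway, read 6090 to 12133 in hypoxia against 4541 to 5607 in NC. Over 9 purine synthesis genes 6 were above 0 and 3 below, with a median of 0.09 pooled, 0.05 in CH and −0.02 in IH. For comparison, 5609 of all 11982 genes were above 0, and 0.526% of all bright probe sets were above NC without overlap. Some separations were small. Gdh, glutamate dehydrogenase, averaged 30403 ± 2187 in CH and 31350 ± 1684 in IH, against 28432 ± 528 in NC (SD, n = 3 each), a pooled log2 fold change of 0.12.

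Of the remaining leading genes, CG18744 read 402 to 744 in hypoxia against 309 to 401 in NC, with IH1 only 0.07% above NC2. CG9815 read 836 to 980 in hypoxia against 592 to 678 in NC, a gap of 23.4%. CG1632 and CG13325 had log2 fold changes of 0.58 and 0.49 in CH and of 0.85 and 0.45 in IH.

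Over the 54 probe sets the pooled log2 fold change ran between 0.12 and 1.29 with a median of 0.39. Of them 14 were past a fold of 1.5 in the pooled comparison, 6 in both patterns and 32 in neither pattern. Gaps to the highest NC array had a median of 2.76%, with 35 under 5% and 12 of 10% or more. IH arrays were nearest to NC in 37 of the 54, most often IH1 (22). Their mean signals had a median of 3667, against 2862 over all bright probe sets. Single symbols were given for 50 and several symbols for 4. Where a single-symbol gene had another bright probe set, 12 of 20 of these were also above 0. Of those 20, 15 belong to mod(mdg4), a gene with many spliced forms, whose other probe sets ran from −0.18 to 0.16, and the other 5 were all above 0.

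Among the genes below NC in both patterns were transcription factors, lipid enzymes and detoxification enzymes. CG1946, of a diacylglycerol acyltransferase family, had the largest smaller change. It read 248, 513 and 436 in CH and 254, 495 and 374 in IH, against 544, 760 and 956 in NC. CH1 and IH1 were lowest, and NC1 was lowest of the NC arrays. Its pooled log2 fold change was −0.95 ± 0.29. FASN3, a fatty acid synthase, read 5806, 7028 and 5456 in CH and 5853, 8266 and 5464 in IH, against 10565, 11533 and 9267 in NC, a pooled log2 fold change of −0.74 ± 0.17. CH and IH were alike in level, at 6097 ± 825 and 6528 ± 1518, against 10455 ± 1137 in NC (SD, n = 3 each). CG18302, of a lipase family, read 188 on CH1 and 473 to 568 on the other hypoxia arrays, against 663 to 890 in NC. Over 14 genes of lipid storage, synthesis and breakdown, none of which is FASN3 or CG18302, 7 were above 0 and 7 below, and the median was 0.01.

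Developmental transcription factors were among the dimmer members. The LIM-homeodomain gene ap read 391, 630 and 578 in CH and 632, 729 and 437 in IH, against 818, 1043 and 1015 in NC. Another bright probe set of ap was at −0.37 in the pooled comparison. Antp, a Hox gene, read 327, 588 and 440 in CH and 312, 548 and 420 in IH, against 607, 758 and 644 in NC. IH1 and CH1 were lowest and CH2 lay 3.27% under NC1. Outside the naming rule, Hand, a factor of heart and visceral cells, averaged 828 ± 80 in CH and 896 ± 57 in IH, against 1088 ± 45 in NC (SD, n = 3 each), and noc, Hr39 and the BMP receptor gene wit had log2 fold changes between −0.45 and −0.53 in both patterns. Other bright probe sets of Hr39 overlapped and changed less, at −0.09 and −0.21 in CH and at −0.14 and −0.17 in IH.

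Members of 2 enzyme families that modify small molecules, the UDP-glycosyltransferases and the cytochrome P450s, were below NC. Ugt304A1, a UDP-glycosyltransferase that attaches sugars to small molecules, read 472, 352 and 365 in CH and 269, 514 and 420 in IH, against 586, 682 and 848 in NC. Ugt303B3 read 617, 700 and 885 in CH and 657, 1110 and 1082 in IH, against 1175, 1539 and 1290 in NC. Over 35 such genes 15 were above 0 and 20 below with a median of −0.08, and 3 had an unadjusted p under 0.05, all lower, where 152 of all 11982 genes were higher and 200 lower at that limit. Cytochrome P450s, which oxidise small molecules, gave Cyp6a18 (−0.40 in CH, −0.72 in IH) and Cyp4ac3 (−0.24 and −0.47). Of 84 probe sets for P450 genes, 1 of which matches several genes, 29 were above 0 and 55 below, with a median of −0.08, 2 higher and 6 lower at an unadjusted p under 0.05. The carboxylesterases alpha-Est2 and alpha-Est8 were also below, in a family of 8 bright probe sets with 4 above 0 and 4 below, and so were the odorant-binding proteins Obp69a and Obp57a, in a family with 7 of 26 bright probe sets above 0 and 19 below, both grouped after seeing the values. Obp57a read 2616 to 4151 in hypoxia against 4365 to 6313 in NC. Neprilysin-like peptidases, grouped after seeing the values, had 11 of 13 bright probe sets below 0 and 3 without overlap (Nepl13, Nepl16 and Nepl21). Each of these 3 lost its separation after quantile normalization and after centring. Of all bright probe sets 0.994% were below NC without overlap, and of all 11982 genes 6373 were below 0.

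Several genes of sugar use and of the secretory pathway were bright and differed by little. Treh, which splits the blood sugar trehalose, averaged 13480 ± 707 in CH and 13705 ± 321 in IH, against 15664 ± 587 in NC (SD, n = 3 each), a pooled log2 fold change of −0.20. The alpha-glucosidase gene tobi, a target of brain insulin, read 18393 to 26435 in hypoxia against 27031 to 30310 in NC. Cnx99A, a calnexin, read 11804 to 13521 in hypoxia against 14955 to 15879 in NC, and the chaperone gene Hsc70-3 (BiP) read 28365 to 31701 in hypoxia against 31837 to 32743 in NC, with a gap of 0.43% between CH1 and the lowest NC array. Over the 10 genes of the endoplasmic reticulum stress list 5 were above 0 and 5 below. Cipc, a clock regulator outside the circadian list, had a wider gap, with 1143 to 1604 in hypoxia against 1959 to 2057 in NC. The potassium channel gene sei read 972 to 1203 in hypoxia and 1209 to 1280 in NC.

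Among leading genes whose role is not given here, CG11741 read 286 on CH1 and 520 to 935 on the other hypoxia arrays, against 1013 to 1645 in NC. CG12780 read 1929 to 2880 in hypoxia against 3281 to 4037 in NC, and CG9903 read 294 to 526 in hypoxia against 656 to 738 in NC. CG30431, CG32191 and CG8654 had pooled log2 fold changes of −0.67, −0.57 and −0.63.

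The 102 probe sets ran from −0.95 to −0.10 with a median of −0.38. Of them 18 were past a fold of 0.67 in the pooled comparison, 8 in both patterns and 76 in neither pattern. The gap, the lowest NC array over the highest hypoxia array, had a median of 4.10%, with 56 under 5% and 26 of 10% or more. The widest was 31.3%, and CG9903 was at 24.6%. IH2 was the hypoxia array nearest to NC in 33 of the 102. The median of their mean signals was 1809. Of 14 other bright probe sets of the same genes only 6 were also below 0, and every other one was above 0 for Evi5 (3), hep (2), CG32425 (2) and rdx (1). At the limit on brightness, Ugt304A1 lay just inside with a mean signal of 501, and CG13707 lay just outside with 498, at −0.15 in CH and −0.46 in IH.

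Samples were whole flies, in which fewer cells of a type and less RNA per cell cannot be told apart. Markers of neurons were below 0 in 10 of 11 genes, photoreceptors in 6 of 6, glia in 5 of 5 and hemocytes in 6 of 7, with medians of −0.20, −0.20, −0.06 and −0.26, and those of ovary and eggshell were above 0 in 14 of 16 (0.18). Counts above 0 in the other marker lists were 9 of 11 for male accessory gland (0.13), 10 of 15 for testis (0.06) and 4 of 6 for fat body (0.17). They were 4 of 11 for muscle (−0.04), 1 of 2 for Malpighian tubules (0.00) and 0 of 3 for trachea (−0.20). Of all 11982 genes, 5609 were above 0 and 6373 below. Of the neuron markers ple was the dim one, under 100. The summed signal of neuron markers was 11187 to 20924 in CH and 10776 to 19272 in IH, against 16065 to 19054 in NC, and that of ovary markers was 828626 to 1015642 in CH and 790924 to 1137540 in IH, against 650085 to 888921 in NC. Photoreceptor sums were 48684 to 95150 in CH and 36498 to 113858 in IH, against 60408 to 90007 in NC, those of glia 19790 to 31049 in CH and 17935 to 36655 in IH, against 22842 to 31888 in NC, and those of hemocytes 6722 to 10666 in CH and 5819 to 11284 in IH, against 8913 to 12623 in NC. All of these ranges overlapped, no marker gene was among the 156, and the part of tissue makeup in them was not tested.

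**Figure D3:**
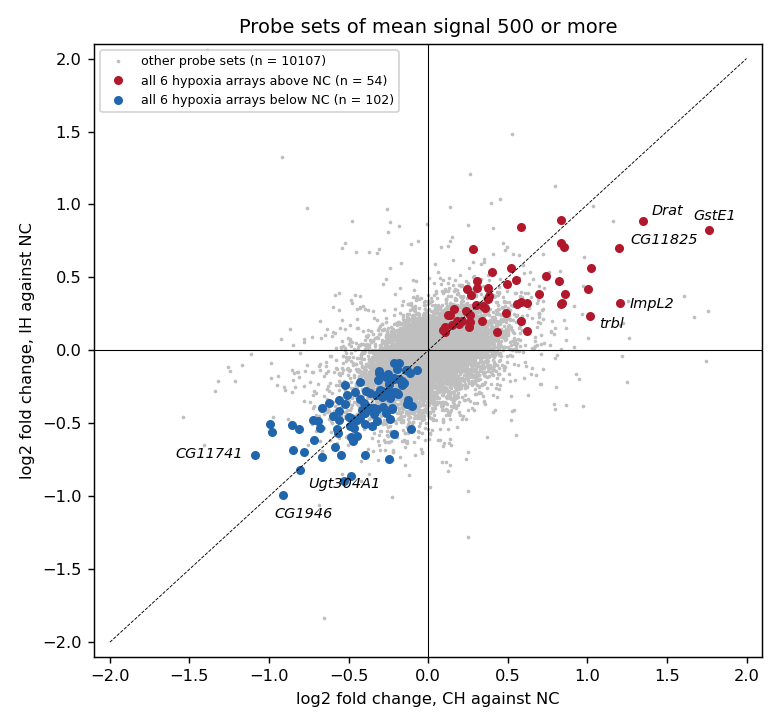
Log2 fold change of CH against NC (horizontal) and of IH against NC (vertical) for the probe sets of mean signal 500 or more, with the 54 above NC in red, the 102 below NC in blue and 10107 others in grey; 5 others fall outside the axes. The dashed line marks equal change, and both axes share the NC arrays. The labelled red points (GstE1, Drat, ImpL2, CG11825 and trbl) lie under the line.

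CH and IH were also set against each other. The CH and IH signals had entered the choice of these probe sets, so the differences between the patterns describe them and carry no test, and nothing is read from the counts. Against NC, the median log2 fold change of the 54 was 0.42 in CH and 0.33 in IH, and that of the 102 was −0.35 in CH and −0.39 in IH. The CH change was the larger for 34 of the 54 and for 49 of the 102, against 56.0% of all bright probe sets. In limma's fit of 3 groups over all probe sets, 9 of the 54 were higher in CH than in IH at an unadjusted p under 0.05 and 0 were lower, and over all bright probe sets the shares were 1.36% higher and 0.818% lower. None of the 156 had an adjusted p under 0.05. The differences of log2 signal, CH minus IH, were 0.78 ± 0.15 for trbl, 0.88 ± 0.19 for ImpL2 and 0.94 ± 0.27 for GstE1 (SE, n = 3 each). The other 6 were Reg-5, aay, CG10283, Sox14, GstE3 and CG11825, between 0.39 and 0.58. Drat, at 0.46 ± 0.27, was not among them, and for CG44251 the difference was −0.06 ± 0.19. Among the 102, hep, a JNK kinase gene, and CG1544 were past the same limit and lower in IH, by log2 differences of 0.50 and 0.36. The joint count of 11 became 4 when arrays were centred on their medians, 36 with array weights, 6 without CH2 and 7 without IH3.

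Genes of the hypoxia response were measured for 14 members, of which 12 were above 0 in the pooled comparison, with a median of 0.28. CG11825 and ImpL2 were without overlap and were also the 2 members at an unadjusted p under 0.05. Of all bright probe sets 0.526% were above NC without overlap. Of all 11982 genes 5609 were above 0, and 152 were higher at that limit. The median of the list was 0.52 in CH and 0.10 in IH. The HIF subunit gene sima read 2564, 3468 and 3560 in CH and 2446, 3384 and 3058 in IH, against 2196, 2908 and 2442 in NC, with overlap, and its partner tgo was at 0.00 in CH and 0.01 in IH. For the prolyl hydroxylase gene Hph the patterns had opposite signs, 0.62 in CH and −0.30 in IH, and so it stayed near 0 when pooled (0.16 ± 0.31). The FGF gene bnl, which guides tracheal growth, read 851, 834 and 564 in CH and 399, 354 and 311 in IH, against 439, 324 and 335 in NC, and the CH arrays were above all the rest. CH minus IH was 1.03 ± 0.22 for bnl and 0.93 ± 0.19 for Hph (SE, n = 3 each), with limma adjusted p = 0.366 and 0.302. The TOR restraint gene scyl (0.86 in CH, 0.21 in IH), the repressor gene hry (0.76, 0.04) and the pyruvate dehydrogenase kinase gene Pdk (0.43, 0.13) were higher in CH than in IH by their means. Vhl was at 0.14 and 0.09. The oxygen-sensing guanylyl cyclases Gyc88E, Gyc89Da and Gyc89Db and the FGF receptor gene btl were dimmer, with mean signals of 168, 20.7, 32.7 and 89.1 in that order.

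**Figure D4:**
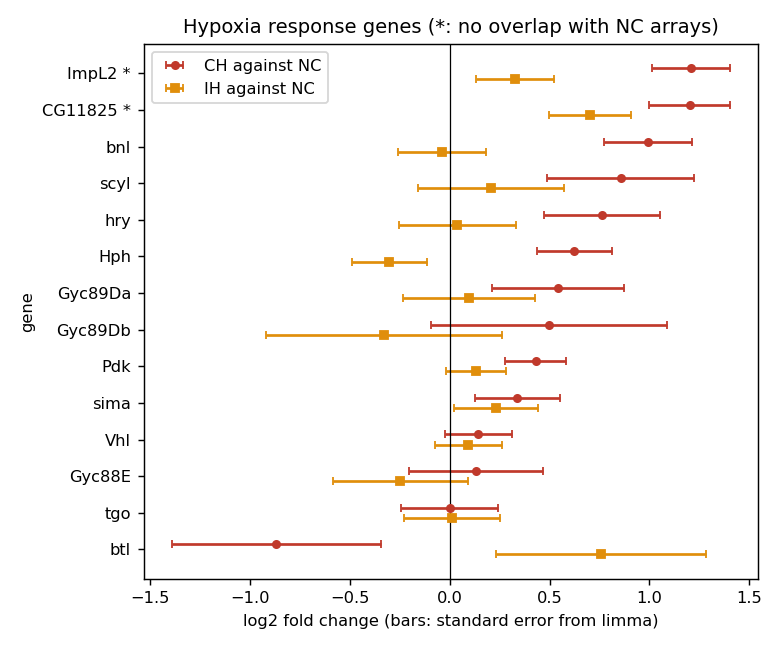
Log2 fold change against NC with its standard error from limma, for the 14 hypoxia response genes in order of their CH change, with circles for CH and squares for IH (3 arrays each). Asterisks mark ImpL2 and CG11825, the members without overlap, and Hph and bnl are right of 0 in CH and at or left of it in IH.

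Other stress and energy lists had few or no members in common to both patterns. Heat shock probe sets were above 0 in 10 of 11, with medians of 0.51 in CH and 0.05 in IH, where 5609 of all 11982 genes were above 0. The 10 bright ones all overlapped with NC, and the other had a mean under 100. Hsp68, an inducible chaperone gene, was at 2.18 in CH and 0.14 in IH. None of 11 glycolysis genes, 20 oxidative phosphorylation genes, 4 metallothioneins, 6 antimicrobial peptides or 41 cytoplasmic ribosomal protein genes was among the 156. Glycolysis genes had a median of 0.02 and oxidative phosphorylation genes of 0.00, although ND-B14, a complex I subunit gene outside the list, was below NC at −0.14 in both patterns. Over 10 genes of glycogen, trehalose and gluconeogenesis 4 were above 0 and 6 below, with Treh the member without overlap, and over 21 ion channels 7 were above 0 and 14 below, with sei alone. The share of all bright probe sets below NC without overlap was 0.994%. No probe set of the lists for JNK and DNA damage (7 of 10 above 0), the circadian clock (3 of 9), Turandot and JAK/STAT (2 of 8), multidrug resistance transporters (3 of 5), cuticle and chitin (41 of 90), gut proteases and carbohydrases (15 of 38), nuclear RNA processing (7 of 19), mitochondrial ribosomal proteins (19 of 69) or the proteasome (25 of 41) was among the 156. The probe set of the JNK kinase gene hep that was among the 102 was not one of those counted for the JNK list. Cytoplasmic ribosomal protein genes were above 0 in 34 of 41, with a median of 0.06 and none at an unadjusted p under 0.05.

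Membership depended on the scale and on single arrays. Quantile normalization gave 75 above and 92 below, so the share above was 44.9% in place of 34.6%, while centring gave 68 and 109 (38.4%). Of the 54, 37 were kept after quantile normalization, 21 after centring and 17 after both, and of the 102 the numbers were 63, 40 and 35. All 12 of the leading genes below were kept under both and 8 of the 12 above. GstE1, CG13325, cbt, Prat2 and trbl lost their separation with centring, CG1632 and ImpL2 with quantile normalization, and aay, imd, Reg-5 and Gdh with each. Krn, Sox14 and CG10283 also lost it with centring. Of the genes below that are named here, Hand, Obp57a, Obp69a, Hsc70-3, Nepl13, Nepl16, Nepl21, hep, Evi5 and Idgf5 lost it with each scaling. Treh, tobi, Cnx99A, sei, Cyp4ac3, CG1544, rdx and ND-B14 lost it with centring. A missing array leaves fewer conditions to meet, and so counts grew. The number above was 82 without CH1, 115 without IH1, 102 without IH2, 96 without IH3, 192 without NC1, 118 without NC2 and 111 without NC3. Below NC the counts were 195 without IH1, 237 without IH2, 383 without NC1, 171 without NC2 and 223 without NC3.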

How the data were processed

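Total RNA of whole Canton-S flies was hybridised by the authors to 9 Affymetrix Drosophila Genome 2.0 arrays and normalized with Bioconductor affy (options and genome build are not stated). Each deposited column is 1 array's intensity per probe set, unlogged, and has a mean of 2500 once the outer 2% of values at either end are trimmed. Here these were turned into log2(signal + 16), for 18769 probe sets without the 183 Affymetrix controls. This scale understates the change of dim probe sets. Precision is limited by having 3 arrays per treatment. Signals under 100 made up 21.6% to 25.8% of an array.

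In the platform annotation, 13647 probe sets had 1 gene symbol, 402 several and 4720 none here. Of 12551 gene identifiers, 12449 matched the RefSeq table, which was used for names and gene order. For gene lists, the probe set with the highest mean stood for a gene, which gave 11982 genes.

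CH and IH arrays as a group were fitted against NC with limma 3.58.1 in R 4.3.3 (lmFit, eBayes). A call needed an adjusted p under 0.05 (Benjamini-Hochberg), a fold above 1.5 or under 0.67, and all 6 hypoxia arrays on the same side of the NC mean. CH was set against IH in a fit of 3 groups, and 18S rRNA controls were compared by an exact permutation test. Scripts were tested on simulated data. The VAMPIRE software named in the methods was not used.

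The genes named were, among probe sets with 1 symbol, the 12 per direction with the largest smaller change, CG1600 and CG3884, all measured hypoxia response genes, up to 3 members without overlap from each of the other lists, and those nearest to a mean signal of 500. Genes outside this rule were chosen after their values were seen. Members and all 38 lists, 11 of them tissue markers, were chosen with earlier results of these data known.

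Alternatives were a 3-group fit, the replicate number as a block, pseudocounts of 1 and 64, quantile normalization, median centring, the dimmest 40% left out, a trended robust variance, array weights, no fold limit, an adjusted p under 0.1, an unadjusted p, other minimum signals, fold limits in both patterns, and each array left out.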

Additional observations from a re-analysis of the deposited data

Results flagged for a closer look

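Of 49 named probe sets, 2 had a hypoxia array far from the other 5, measured as the gap to the nearest array over the range of the 6, past Dixon's 95% limit, which chance passes in about 1 of 20 groups. CG18302 was lowest on CH1, at 188.2, with a ratio of 0.831. Prat2 was highest on CH1, at 18071, with a ratio of 0.655. Both arrays were CH1.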

How the results depend on the processing

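The counts of 0 calls stayed at 0 in each direction under the 3-group fit, pseudocounts, scalings, filter, variance model, array weights, looser limits and with any array left out, and became 226 higher and 211 lower with an unadjusted p. The replicate block also left 0 calls in each direction, and the count of CH against IH differences was 13 with the replicate block. Same-numbered arrays deviated together at correlations of 0.0918 to 0.322, against −0.212 to 0.0833 for other numbers. Every same-numbered pair was thus above every other pair, a hint of replicate structure from the data rather than the design. Deviations cancel out within a treatment, so higher correlations of same-numbered pairs push the others down. The contrast is therefore partly built in. The labels give only a number, so the main fits had no block, and what same-numbered arrays share was not tested. Non-overlapping probe sets numbered 146 above and 187 below with no minimum signal, and 6 above and 8 below with the fold limits in both patterns. With single arrays left out, they ranged from 65 to 192 above and from 131 to 383 below. The count of CH against IH differences was 4 after centring and 36 with array weights, and 6 to 16 with single arrays left out. With single arrays left out the 18S rRNA difference was 1.75 to 2.44 (exact permutation p = 0.0357 to 0.143). Hypoxia response genes near 0 changed sign: btl was 0.047 with a pseudocount of 64, and Gyc89Db was −0.00746 after quantile normalization. With single arrays left out, btl ran from −0.35 to 0.18, Gyc89Db ran from −0.24 to 0.72, tgo ran from −0.0892 to 0.10 and Gyc88E ran from −0.20 to 0.0934. The cause was not tested.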
